A study of Nasonia vitripennis with 9 samples.

Results

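Zasp66, Tm1 and Tm2 were followed through 9 RNA sequencing libraries of the parasitoid wasp *Nasonia vitripennis*. They were found in the files by gene symbol, were chosen with earlier results of these data known, and are 3 of the 15418 gene rows of the deposited count tables and 3 of the 11665 genes that passed a filter on low counts. The libraries came from males of the laboratory strain AsymCX, a line cured of the bacterium Wolbachia. The dsGFP group received double-stranded RNA of green fluorescent protein, made from a plasmid template and with no intended target in the wasp, at 4 µg/µl, carried in water that held a red food dye. The water group received water with the same dye, and the uninjected group received no injection. Injection took place in the larva about 3 days after egg laying. Injected animals were frozen 5 to 6 days later, in pools of 5 individuals with 3 pools per group. The labels call the animals white pupae in one field and larvae in another, and state no age of its own for the uninjected pools. Nothing in them says that pools came from separate hosts, so the p-values here rest on the spread among pools, which can include technical spread.

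All 3 genes encode parts of the contractile apparatus of muscle. Zasp66 belongs to the ZASP family of PDZ domain proteins, which in *Drosophila* sit at the Z-disc, where the thin actin filaments of neighbouring sarcomeres are anchored. Tm1 and Tm2 encode tropomyosins, coiled-coil proteins that lie along the actin filament and, with troponin, keep myosin off it until calcium rises. In *Drosophila* the Tm1 gene also gives rise to tropomyosins of the cytoskeleton outside muscle, whereas Tm2 is known mainly from muscle. In insects that pass through a pupa, larval muscle is remodelled and the flight muscles of the adult are built at this stage. The gene table of the RefSeq assembly Nvit_psr_1.1 lists 50 transcripts for Tm1, 9 for Zasp66 and 4 for Tm2. The counts sum all transcripts of a gene, so a shift between muscle and other forms would not be seen.

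Zasp66 fell after dsGFP injection, to 0.376 of the level in uninjected pupae. The result passed only just without the pool dsGFP 1 and no longer passed the test without the pool dsGFP 2. After water injection Zasp66 stood at 0.459 of the uninjected level, which did not pass. Tm2 also had lower values with dsGFP, at 0.457 of the uninjected level, but did not pass the test. Tm1 differed little in any comparison, with fitted ratios of 1.05 to 1.12. Between dsGFP and water none of the 3 genes passed. In whole animals, fewer muscle cells and less RNA per muscle cell cannot be told apart. The uninjected pools have no stated age and were each sequenced deeper than each injected pool. What part stage or depth had was not tested.

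Levels are given in CPM, the share of a library's gene total expressed as counts per 1000000, scaled between libraries by the TMM method. Gene totals were 33885222 to 35982723 in the dsGFP libraries, 36177528 to 37100106 in the water libraries and 38792239 to 46080606 in the uninjected libraries, so each injected library was shallower than each uninjected one. Tests were edgeR's quasi-likelihood test in a single fit of all 9 libraries, with Benjamini-Hochberg adjustment over the 11665 genes and a threshold of 0.05. Of a list of 43 symbols of muscle genes known from *Drosophila*, these 3 matched a row, and the other 40 were not analysed here.

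Zasp66 stood at 7.51, 5.73 and 8.48 CPM in the dsGFP libraries, at 9.56, 9.48 and 7.53 CPM in the water libraries and at 13.5, 26.5 and 17.8 CPM in the uninjected libraries. Each of the 6 injected pools lay below each of the 3 uninjected pools, as for 4.46% of tested genes. The dsGFP and water pools overlapped. The lowest injected library held 174 Zasp66 counts, for which counting alone gives a standard deviation of 7.58%, and the highest uninjected library held 1214. Group means were 7.24 ± 1.39 CPM with dsGFP, 8.86 ± 1.15 CPM after water and 19.3 ± 6.63 CPM without injection (SD, n = 3 each). The uninjected pools were the most unequal, with the second pool at 1.96 times the first.

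The fall of Zasp66 between dsGFP and uninjected pupae was -1.41 on the log2 scale (SE 0.24, 95% confidence interval -1.94 to -0.88, edgeR adjusted p = 0.0111). Against the 4.11% of tested genes called lower in this comparison, Zasp66 ranked 133 of 11665 by p. Genes with no overlap and lower CPM with dsGFP made up 13.1% of those tested. Leaving out dsGFP 2, the pool with the lowest Zasp66, gave -1.27 and ended the call (edgeR adjusted p = 0.0513). Without dsGFP 1 the value was -1.45 and the call was kept only just (edgeR adjusted p = 0.0488). Leaving out uninjected 2, the pool with the highest, gave -1.12 and kept it (edgeR adjusted p = 0.0263).

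With water injection Zasp66 had a log2 fold change of -1.12 against uninjected pupae (SE 0.24, 95% confidence interval -1.65 to -0.60) and did not pass (edgeR adjusted p = 0.475). It ranked 17 by p, in a comparison in which edgeR called 1 gene (0.00857%), higher with water. Of the 11665 tested genes, 662 had an unadjusted p under 0.05 by edgeR, 1 passed by limma-voom, and 46 passed by DESeq2. Zasp66 was among those 46, with a log2 fold change of -1.12 and DESeq2 adjusted p = 0.00743. Genes with no overlap and lower CPM with water were 5.79% of those tested.

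Taking both injected groups together as the mean of dsGFP and water, Zasp66 fell to 0.415 of the uninjected level (log2 fold change -1.27, SE 0.20, edgeR adjusted p = 0.0171). In this comparison 2.84% of tested genes were called lower, and 4.46% had all 6 injected libraries below all 3 uninjected ones. The call was lost without water 3 (-1.22, edgeR adjusted p = 0.0509) and without uninjected 2 (-0.98, edgeR adjusted p = 0.0633). The 2 injected groups share the uninjected libraries with this comparison, so these 3 values are not independent.

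**Figure D1:**
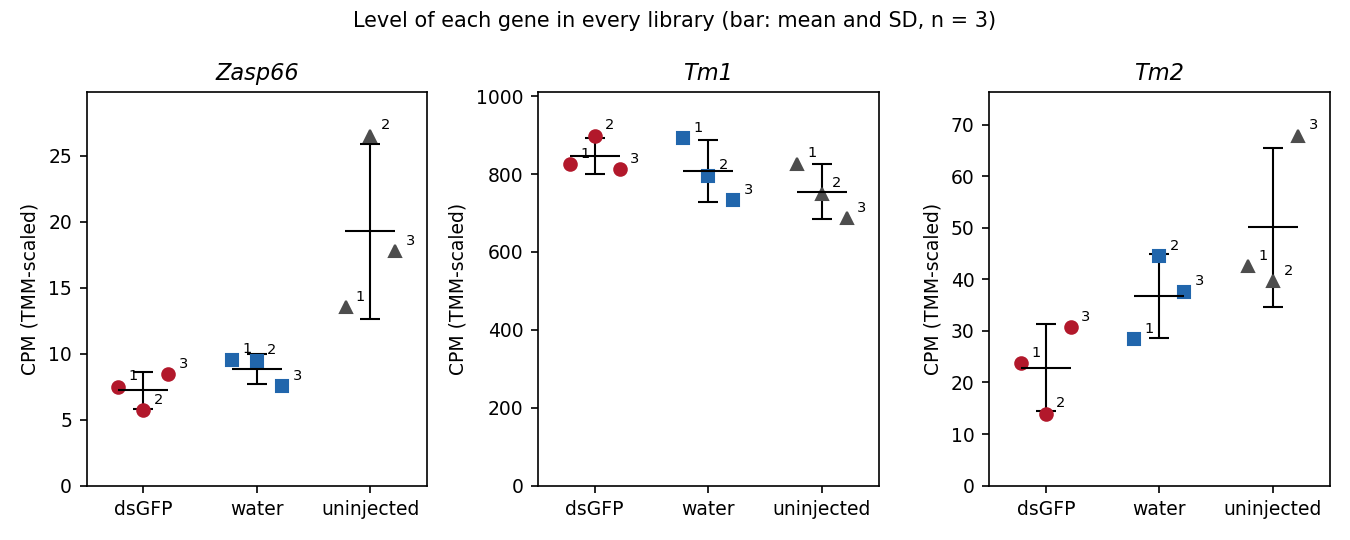
CPM on a linear axis from 0 for Zasp66, Tm1 and Tm2 (panels) in the dsGFP, water and uninjected libraries, each point 1 library with its replicate number, and bars for the mean and SD of 3. Zasp66 lies below 10 CPM in every injected library and above 13 CPM in every uninjected one, and 4.46% of tested genes separate likewise. Tm1 stays between 687 and 898 CPM, and Tm2 runs from 14.0 to 67.8 CPM with water overlapping both other groups.

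Tm2 stood at 23.8, 14.0 and 30.7 CPM in the dsGFP libraries, at 28.4, 44.5 and 37.6 CPM in the water libraries and at 42.6, 39.7 and 67.8 CPM in the uninjected libraries. All dsGFP pools lay below all uninjected pools, as for 13.1% of tested genes, and the water pools overlapped with both. Means were 22.8 ± 8.43 CPM with dsGFP, 36.8 ± 8.12 CPM after water and 50.0 ± 15.5 CPM without injection (SD, n = 3 each). Between neighbours in that order, water and uninjected differed by less than the spread of the uninjected pools. Libraries held 424 to 3268 Tm2 counts, so counting error was at most 4.86%, far below the coefficients of variation of 36.9% with dsGFP, 22% with water and 30.9% without injection.

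Against uninjected pupae, the log2 fold change of Tm2 with dsGFP was -1.13 (SE 0.33, 95% confidence interval -1.90 to -0.36), and the gene did not pass (unadjusted p = 0.00980, edgeR adjusted p = 0.121). DESeq2 gave the same size, -1.12, and called it (DESeq2 adjusted p = 0.00252). In this comparison DESeq2 called 939 of the 11665 tested genes and edgeR 531, or 4.55%. With water Tm2 differed from uninjected by -0.44 on the log2 scale (SE 0.33, edgeR adjusted p = 0.999). With both injected groups together it differed by -0.79 (SE 0.28, edgeR adjusted p = 0.244). There DESeq2 called Tm2 (DESeq2 adjusted p = 0.0346), in a comparison in which it called 664 of the 11665 tested genes. Without uninjected 3 the edgeR values for water and for both groups were -0.18 and -0.52, and without water 1 the value for water was -0.29.

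Tm1 was the steadiest of the 3, at 826, 898 and 814 CPM in the dsGFP libraries, 893, 796 and 734 CPM in the water libraries and 827, 750 and 687 CPM in the uninjected libraries. The 3 groups overlapped, and the highest library was 1.31 times the lowest. Each library held 27277 to 34321 Tm1 counts, for which counting error is 0.605% or less. Means were 846 ± 45.7 CPM with dsGFP, 808 ± 80.3 CPM after water and 754 ± 70.2 CPM without injection (SD, n = 3 each).

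Tm1 had log2 fold changes of 0.17 for dsGFP against uninjected (SE 0.13, edgeR adjusted p = 0.514) and 0.10 for water against uninjected (SE 0.13, edgeR adjusted p = 0.999). The 95% confidence interval of the ratio of dsGFP to uninjected pupae ran from 0.922 to 1.36. Without TMM factors the same comparison gave 0.06. On plain library totals Tm1 ran from 745 to 848 CPM, a narrower range than with the factors. Whether the response of Tm1 differed from that of Tm2 or Zasp66 was not tested, since no test of a difference between genes was part of the fit.

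Between dsGFP and water pupae the injection is shared and the double-stranded RNA differs. The 95% confidence interval of the ratio of dsGFP to water ran from 0.567 to 1.18 for Zasp66, from 0.861 to 1.27 for Tm1 and from 0.364 to 1.06 for Tm2. The fitted log2 fold changes were -0.29 for Zasp66 (SE 0.24, edgeR adjusted p = 0.954), 0.07 for Tm1 (SE 0.13, edgeR adjusted p = 0.988) and -0.69 for Tm2 (SE 0.33, edgeR adjusted p = 0.845). In this comparison edgeR called 0% of genes, 710 had an unadjusted p under 0.05 and DESeq2 called 6, with none of the 3 muscle genes among them. Without dsGFP 2 the log2 fold changes were -0.15 for Zasp66 and -0.43 for Tm2. The value of Tm1 turned to -0.008 on plain library totals and to -0.003 without water 3.

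A test for any difference among the 3 groups passed for Zasp66 (edgeR adjusted p = 0.0301) and missed the threshold for Tm2 (edgeR adjusted p = 0.323) and Tm1 (edgeR adjusted p = 0.869), beside 2.04% of tested genes called.

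**Figure D2:**
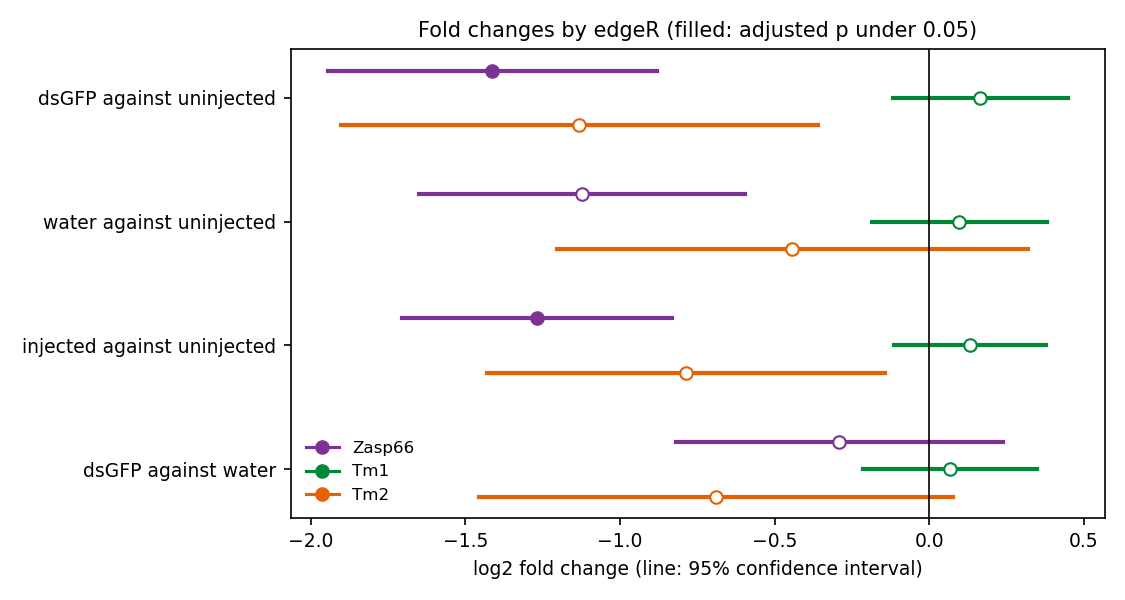
Log2 fold change (point) and 95% confidence interval (line) of each gene in 4 comparisons by edgeR, with filled points for an adjusted p under 0.05. Zasp66 is filled for dsGFP (-1.41) and for both injected groups together (-1.27) against uninjected, every Tm1 interval crosses 0, and the Tm2 interval for dsGFP against uninjected ends at -0.36.

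Spread between pools of 1 group differed among the genes. The biological coefficient of variation, which edgeR estimates after removing counting error and moderates towards genes of like level, was 28.5% for Tm2, 23.8% for Zasp66 and 16.8% for Tm1, with a median of 17.1% over all tested genes. Tm2 varied more than 89.1% of tested genes and stood at 1.52 times the trend for its level. Zasp66 varied more than 81.3% of tested genes and Tm1 more than 48%, at 0.989 and 0.723 times the trend for their levels. That trend was 24% for Zasp66, 23.2% for Tm1 and 18.8% for Tm2, each above the median of all tested genes. The unmoderated coefficients of variation of Tm1 CPM were 5.41% with dsGFP, 9.94% with water and 9.3% without injection, each below 16.8%.

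**Figure D3:**
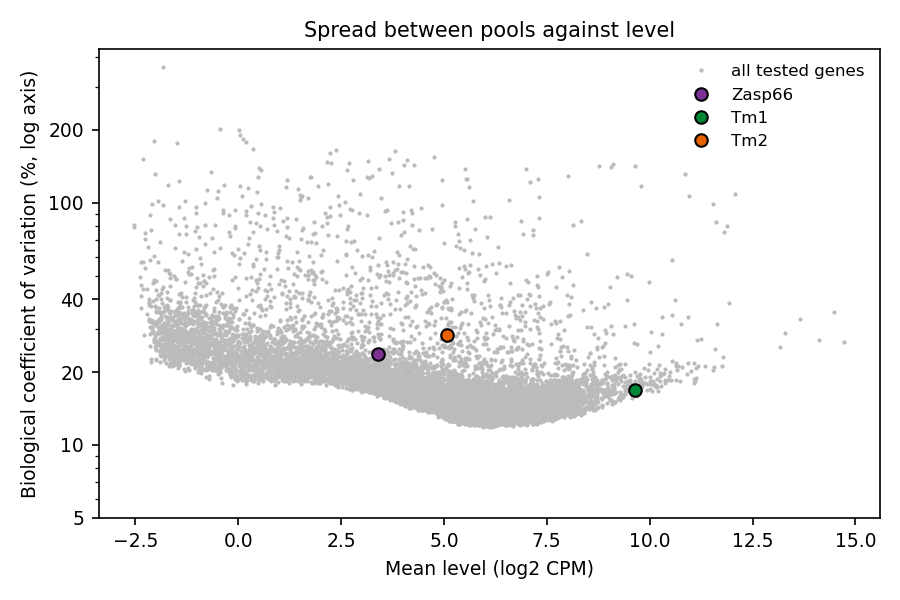
Biological coefficient of variation between pools (percent, log axis) against mean level (log2 CPM) for all tested genes (grey) and the 3 muscle genes (coloured). Tm2 lies above the main cloud at 28.5%, Zasp66 lies at 23.8%, above 81.3% of tested genes, and Tm1 lies near the right end at 16.8%.

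The genes did not rank the libraries alike. Zasp66 was highest in uninjected 2 and Tm2 in uninjected 3, and among the dsGFP libraries both were lowest in dsGFP 2. Across the 9 libraries log2 CPM of Zasp66 and Tm2 correlated at r = 0.70 (Spearman rho = 0.73), and 88.4% of tested genes had a lower r with Zasp66. Leaving out uninjected 2 and uninjected 3 gave r = 0.78. On deviations from the group means, which remove what the groups share, r was 0.23. These correlations describe 9 libraries in 3 groups that share their scaling and differ in depth.

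Tm1 ran against Tm2, at r = -0.80 over the 9 libraries (rho = -0.70) and r = -0.73 on deviations from group means. It weakened to r = -0.42 on plain library totals. In Tm2 counts per 100 Tm1 counts, dsGFP libraries held 2.88, 1.55 and 3.78, water libraries 3.17, 5.60 and 5.13, and uninjected libraries 5.15, 5.29 and 9.88. This ratio needs no scaling factor, is not corrected for transcript length and is read only between libraries. It was lower in every dsGFP pool than in every uninjected pool, and the water pools lay across both. For CPM of single genes 13.1% of those tested were that way, and for ratios of other genes this was not counted.

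The summed level of cuticle genes ran against that of Tm2. The CPR cuticular protein genes, which encode chitin-binding proteins laid down at each moult, are 35 rows in the files with 24 tested. Their summed level was 9003, 17060 and 3376 CPM in the dsGFP libraries, 8255, 1142 and 4309 CPM in the water libraries and 5933, 4182 and 274 CPM in the uninjected libraries. The pool with the highest sum, dsGFP 2, had the lowest Tm2, and the pool with the lowest sum, uninjected 3, had the highest. Log2 values correlated at r = -0.86 over the 9 libraries (rho = -0.85), r = -0.67 without those 2 libraries and r = -0.87 on deviations from group means. With the cuticle sum as a covariate, a fit chosen after seeing the data, Tm2 had a log2 fold change of -0.68 for dsGFP against uninjected (SE 0.18, edgeR adjusted p = 0.0728).

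Zasp66 followed the cuticle sum less closely, at r = -0.49 over the 9 libraries (rho = -0.58), r = -0.04 without uninjected 3 and dsGFP 2, and r = -0.20 on deviations. The same covariate gave it a log2 fold change of -1.37 (SE 0.28, edgeR adjusted p = 0.0370), against -1.41 without. Tm1 ran with the cuticle sum at r = 0.79, or 0.40 without the same 2 libraries. This r of Tm1 was not recomputed on plain library totals, on which Tm1 varied less. Of the 24 tested CPR genes, dsGFP against uninjected called 3 lower and 0 higher, beside 4.11% of all tested genes called lower and 0.437% called higher, with a median log2 fold change of 0.70 beside 0.01 over all tested genes. The values of 9 of the 24 were lower, so the genes did not all move as their sum did.

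**Figure D4:**
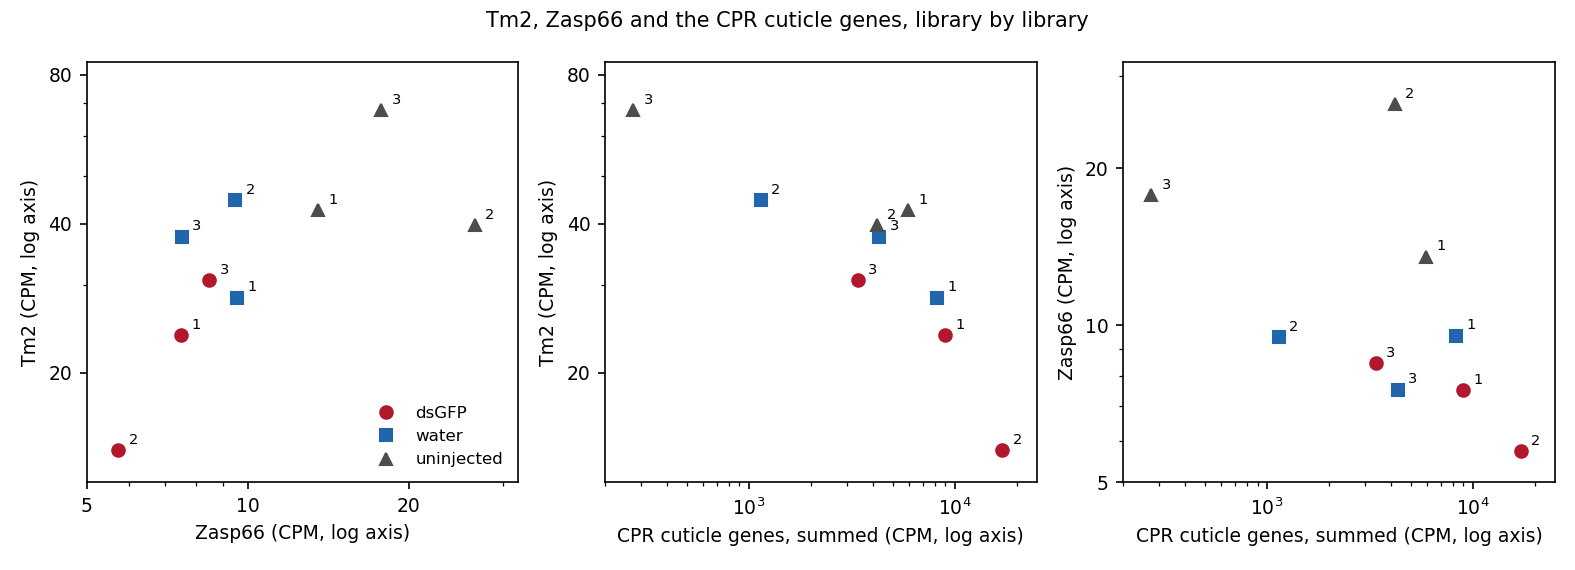
Tm2 against Zasp66 (left), Tm2 against the summed CPR cuticle genes (middle) and Zasp66 against that sum (right), in CPM on log axes, with 1 point per library and its replicate number. Tm2 goes down as the cuticle sum goes up (r = -0.86). Zasp66 is higher in each uninjected library than in each injected one, as are 4.46% of tested genes. The r of Zasp66 with the sum is -0.49, or -0.04 without uninjected 3 and dsGFP 2.

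Summed levels of other marker lists were read beside these results, with no test of the sums. Like the cuticle list, they were chosen with earlier results of these data known. Nervous system genes (the channel genes GluCl, GRD and Slo and the nicotinic acetylcholine receptor subunits, 15 rows with 14 tested) summed to 164 to 208 CPM with dsGFP, 212 to 238 CPM with water and 222 to 287 CPM without injection. The water and uninjected sums overlapped. For dsGFP against uninjected 1 of the 14 was called lower and 0 higher, beside 4.11% of all tested genes called lower and 0.437% called higher. The values of 12 of 14 were lower, with a median log2 fold change of -0.36 beside 0.01 over all tested genes. Over the 9 libraries their sum correlated with Zasp66 at r = 0.81 and with Tm2 at r = 0.63. On deviations from group means the r was 0.72 for Zasp66 and 0.03 for Tm2.

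CYP314A1, whose *Drosophila* counterpart makes the active moulting hormone, ran from 24.5 to 32.1 CPM with dsGFP, from 30.9 to 44.2 CPM with water and from 46.5 to 112 CPM without injection. It correlated with Zasp66 at r = 0.96, at r = 0.81 without uninjected 2 and uninjected 3, and at r = 0.84 on deviations from group means. The hormone gene Burs had values in the other direction, from 3.48 to 7.11 CPM with dsGFP, from 3.41 to 4.93 CPM with water and from 2.78 to 4.02 CPM without injection. Burs correlated with Zasp66 at r = -0.76, and at r = -0.57 on deviations. Between dsGFP and uninjected, CYP314A1 fell by 1.45 on the log2 scale (SE 0.30, edgeR adjusted p = 0.0332), and Burs, at 0.76 (SE 0.27), did not pass (edgeR adjusted p = 0.155). The low-level cytochrome oxidase subunits Cox6c and Cox7a1 summed to 14.9 to 19.1 CPM with dsGFP, 21.2 to 27.0 CPM with water and 28.6 to 36.5 CPM without injection. Both were called lower for dsGFP against uninjected, beside 4.11% of tested genes. How often other sums separate the groups in this way was not counted. CYP314A1, Burs, Cox6c and Cox7a1 were chosen with earlier results of these data known. Their r values over the 9 libraries are therefore no independent support. With Tm2 the oxidase sum correlated at r = 0.91, and with Zasp66 at r = 0.86. On deviations from group means the r was 0.77 for Tm2 and 0.46 for Zasp66. Tm1 ran against the sum, at r = -0.81, and at r = -0.92 on deviations. Scaled Tm1 was highest in dsGFP 2, the library with the lowest TMM factor (0.896), and lowest in uninjected 3, with the highest (1.13). On plain library totals Tm1 ran from 745 to 848 CPM, and its r values with the sum were not recomputed on them. What part stage, tissue makeup or depth had in the muscle gene results was not tested.

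The named genes closest to Zasp66 over the 9 libraries, by Pearson correlation of log2 CPM among 592 tested genes with a name other than a locus number, were CYP314A1 (r = 0.96), GRD, a subunit of a ligand-gated ion channel (r = 0.96), the cytochrome P450 gene CYP4AB21 (r = 0.95), the serine protease gene SP115 (r = 0.94) and TctexA, a dynein light chain gene (r = 0.93). Closest of all tested genes was LOC100113885 (r = 0.99), a gene named only by a locus number. It averaged 7.37 CPM with dsGFP, 8.69 CPM with water and 17.2 CPM without injection, and fell by 1.22 on the log2 scale between dsGFP and uninjected (edgeR adjusted p = 0.0105). Its highest library was uninjected 2, as for Zasp66. In all, 285 of 11664 other tested genes (2.44%) reached r = 0.9 with Zasp66.

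Closest to Tm2 were the P450 gene CYP4BW5 (r = 0.98), Gnbp1-2, of a family that binds glucans of microbes (r = 0.96), the odorant receptor gene Or135 (r = 0.96), Icmt, which encodes a methyltransferase of prenylated proteins (r = 0.96), and Nos (r = 0.95). Few counts stand behind Or135, at 0.304 CPM with dsGFP, 0.572 CPM after water and 0.812 CPM without injection, and behind CYP4BW5, at 0.876 CPM with dsGFP, 1.63 CPM after water and 2.29 CPM without injection. The single closest gene was LOC100328544 (r = 0.99), with 68.3, 28.2 and 86.9 CPM in the dsGFP libraries, 87.3, 159 and 136 CPM in the water libraries and 150, 111 and 248 CPM in the uninjected libraries. Like Tm2 it was lowest in dsGFP 2 and highest in uninjected 3, and it did not pass between dsGFP and uninjected (edgeR adjusted p = 0.177).

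Closest to Tm1 were the odorant receptor gene Or85 (r = 0.97), the serine protease gene SP68 (r = 0.94), Eh1 (r = 0.94), the cuticular protein gene CPR9 (r = 0.93) and the P450 gene CYP4G43 (r = 0.93). None of these 5 was called between dsGFP and uninjected, where their log2 fold changes were 0.33, 0.49, 0.69, 0.86 and 0.47 in that order. Few counts stand behind SP68, at 0.63 CPM with dsGFP, 0.62 CPM with water and 0.45 CPM without injection. Over all genes LOC100117412 was closest (r = 0.98), at 1115 CPM with dsGFP, 999 CPM with water and 916 CPM without injection. These r values were not recomputed on plain library totals, on which the r of Tm1 with Tm2 went from -0.80 to -0.42. Neither Zasp66 nor Tm2 was among the named genes closest to the other, and these likenesses are descriptions of 9 libraries.

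Genes next to the 3 on the RefSeq assembly were also read. Zasp66 lies between Ogdh, which encodes a subunit of the oxoglutarate dehydrogenase of the citric acid cycle, and LOC100123480. Ogdh averaged 115 CPM with dsGFP, 110 CPM after water and 120 CPM without injection, and correlated with Zasp66 at r = 0.28; LOC100123480 correlated at r = -0.40. Neither neighbour was called between dsGFP and uninjected (edgeR adjusted p = 0.880 for Ogdh and 0.644 for LOC100123480).

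Tm2 lies between LOC107981681 and LOC100113951. LOC107981681 stood at 11.4, 4.18 and 13.4 CPM in the dsGFP libraries, 10.6, 21.7 and 21.0 CPM in the water libraries and 25.1, 29.9 and 44.8 CPM in the uninjected libraries. It correlated with Tm2 at r = 0.97, and every dsGFP pool lay below every uninjected pool, as for 13.1% of tested genes. Between dsGFP and uninjected it differed by -1.78 on the log2 scale and did not pass (edgeR adjusted p = 0.110). LOC100113951 correlated with Tm2 at r = 0.77. Beside Tm1, LOC100113505 correlated with it at r = 0.97, at 78.5 CPM with dsGFP, 70.3 CPM with water and 61.8 CPM without injection. That r was not recomputed on plain library totals, on which Tm1 varied less. The other neighbour of Tm1 in the table is a transfer RNA gene and was not tested.

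The libraries carry no strand, and 44.6 to 56.6% of the strand-specific counts of Zasp66, 49.5 to 50.8% of those of Tm1 and 48.3 to 52.0% of those of Tm2 fell in the first strand column. The strand columns together held 100.3 to 102.1% of the unstranded Zasp66 count and 100.1% or less of the Tm1 and Tm2 counts, so few read pairs were set aside because they lay over genes on both strands. Tm1 and Tm2 are related in sequence, and read pairs that map to several places were not counted, so either could be undercounted.

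**Figure D5:**
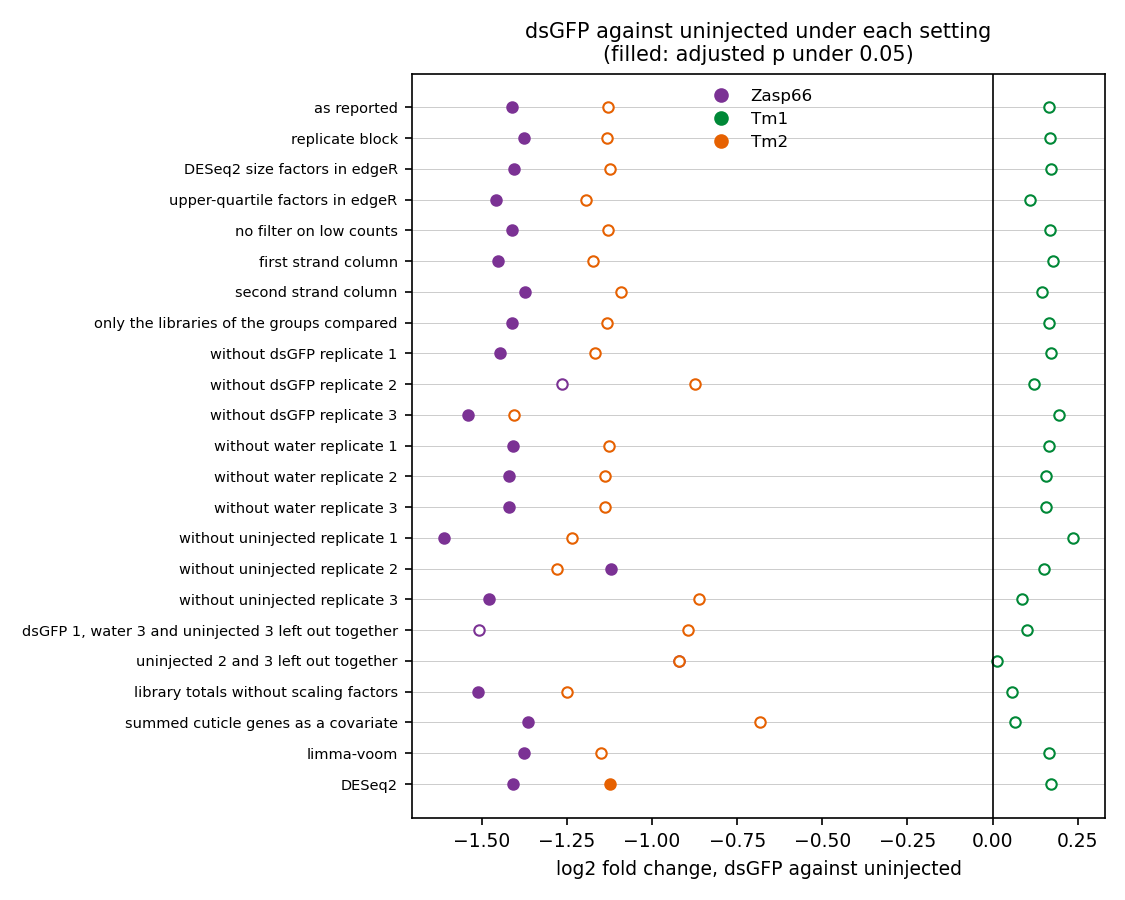
Log2 fold change of dsGFP against uninjected for each gene (point) under the reported fit and 22 other settings (rows), filled where the adjusted p is under 0.05. Zasp66 stays between -1.61 and -0.92, Tm2 stays between -1.40 and -0.68 and is filled for DESeq2 alone, and Tm1 stays between 0.01 and 0.24. With uninjected 2 and 3 left out, only uninjected 1 remains in its group, and the Tm2 point covers that of Zasp66.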

How the data were processed

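Poly(A)-enriched RNA was sequenced as 150-base read pairs, and no step marking strand is described, per the labels' protocols. The authors deposited raw counts per gene, 1 file per library in the layout of STAR, of which version 2.6.1b is listed, per the submitters' processing notes. The build of the genome was not given in the sources used here, and coordinates are left out. The unstranded column was used. Of 15430 rows, 12 without a gene name (at most 0.0608% of counts) were left out; 14940 of the other 15418 matched RefSeq symbols of Nvit_psr_1.1. No protein or promoter sequence was used here.

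Genes passing filterByExpr (minimum count 10, total 15) were tested with edgeR 4.0.16 (TMM, robust glmQLFit, glmQLFTest) in R 4.3.3, in 1 fit of 3 groups without a block. The code was run on counts simulated from the fit's own dispersions. Such a run assumes the model and cannot show whether these data follow it. TMM factors ran from 0.896 to 1.13. Log2 CPM used a prior count of 2. Alternatives used limma 3.58.1 and DESeq2 1.42.0. Named genes were the 3 genes, the 5 named genes most correlated with each and the single most correlated. The genes, lists and tests were chosen with earlier results of these data known. No 2 libraries of a group agreed within counting noise.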

Additional observations from a re-analysis of the deposited data

How the results depend on the processing

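Alternatives were run for each gene and comparison, 22 for each of the pairwise comparisons and 21 for both injected groups together, which has no fit of only its groups. Zasp66 and Tm2 kept their direction in all of them. For dsGFP against uninjected, Zasp66 lost the call in a fit that drops dsGFP 1, water 3 and uninjected 3 (-1.51, edgeR adjusted p = 0.234). For both injected groups together it lost it in the same fit (-1.29, edgeR adjusted p = 0.339). With uninjected 2 and 3 both left out, only uninjected 1 remained in its group. Zasp66 then stood at -0.92 for dsGFP and -0.78 for both groups together. Leaving out 1 library gave -1.61 to -1.12 for Zasp66 with dsGFP and -1.47 to -0.98 with both groups together. For Tm2 it gave -0.96 to -0.43 between dsGFP and water, -0.61 to -0.18 for water, -1.40 to -0.86 for dsGFP and -0.94 to -0.52 for both groups together against uninjected. DESeq2 called Zasp66 for water (-1.12) and Tm2 for dsGFP (-1.12) and both groups together (-0.78). Tm1 changed sign near 0 between dsGFP and water on plain library totals (-0.008) and over the leave-one-out fits (-0.003 to 0.15), and with uninjected 2 and 3 left out for water (-0.057) and both groups together (-0.022).

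The count of genes called was 0 for dsGFP against water (DESeq2 6), 1 for water, 531 for dsGFP and 355 for both groups together against uninjected. For water it was 0 with the second strand column, 0 with 1 library of each group left out, 46 with DESeq2 and 1 to 7 over the leave-one-out fits. For dsGFP it was 255 with only the groups compared, 0 and 5 with those libraries left out, 939 with DESeq2, 321 with the cuticle covariate and 134 to 681 over the leave-one-out fits. For both groups together it was 0 and 12, 229 with limma-voom, 664 with DESeq2, 219 with the covariate and 1 to 487 over the leave-one-out fits, 1 being without water 3. The cause was not tested; leaving out libraries also lowers the number of pools. The covariate and plain totals were chosen after seeing the data.

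The numbers in the titles are not said to pair the pools. Of same-numbered pairs of libraries, 2 of 9 had deviations correlating over 0.1, against 6 of 18 others. So few pairs cannot decide whether pools were paired. The replicate block gave 539 calls for dsGFP against uninjected, with Zasp66 at -1.38 (adjusted p = 0.0242) and Tm2 at -1.13 (adjusted p = 0.117), and changed no call of the 3 genes.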
